A study of Saccharomyces cerevisiae with 8 samples.

Results

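The comparison covers the step from Day 2 to Day 3 of growth in yeast colonies, taken as the Day 3 libraries against the Day 2 libraries by their labels. It rests on 4 of the 8 libraries of the study, 2 for each day. All groups are wild-type Saccharomyces cerevisiae of the BY4741 background with the genotype MATa his3Δ1 leu2Δ0 met15Δ0 ura3Δ0, so every library, controls included, carries these auxotrophic deletions. Log phase cells were grown in liquid medium and harvested, or diluted, plated on solid medium and harvested as colonies on Day 2, Day 3 or Day 4. Total RNA from hot phenol extraction was made into PAT-seq libraries, which capture the 3′ ends of polyadenylated transcripts together with part of the poly(A) tail. The labels do not say whether the 2 libraries of a day came from separate platings, so the p-values given here reflect library-to-library spread only, and that spread may be technical. A colony is a mixture of cells at its edge, surface and interior, and in RNA from whole colonies fewer cells of a type and less RNA per cell cannot be told apart.

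As glucose runs out, budding yeast stops fermenting and consumes the ethanol it has excreted. This diauxic shift relieves glucose repression, raises enzymes of ethanol use, gluconeogenesis, the glyoxylate cycle and respiration, and lowers ribosome production through the TORC1 and protein kinase A pathways. The poly(A) tail is added when a transcript's 3′ end is cleaved, is bound in the cytoplasm by Pab1, and is shortened by the Pan2-Pan3 and Ccr4-Not deadenylases before decapping and decay. 3 readouts bear on this step: the reads counted per gene (expression), the mean length of the sequenced tails per gene in nt, and the share of a gene's reads that carry a tail.

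Total counts were 6203115 and 7957656 in the Day 2 libraries and 7947553 and 8435846 in the Day 3 libraries. The tail tables held 2765040 to 3640183 tailed reads a library. These are not a subset of the counts, since some genes had more tailed reads than counts. Levels are given as CPM, a gene's counts scaled to a common library size after TMM normalisation. Replicates differed by a median of 0.26 (Day 2) and 0.19 (Day 3) on the log2 scale per gene. A principal component of all 8 libraries, Log phase and Day 4 included, held 76.5% of their variance. On it the Day 2 libraries lay at -10.1 and -19.9 and the Day 3 libraries at 38.4 and 34.9. The Log phase libraries lay at -76.3 and -77.6 and the Day 4 libraries at 54.0 and 56.6. The deleted MET17 (named MET15 in the genotype) had 0 counts in all 4 libraries, which allows up to 0.356 to 0.484 CPM by a floor of 3 counts a library, and LEU2 and URA3 had at most 10.

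Expression changed in both directions. Of 5930 entries tested, 1438 (24.2%) were higher and 1492 (25.2%) lower on Day 3 at an adjusted p under 0.05 (edgeR quasi-likelihood F test, Benjamini-Hochberg adjustment), 49.4% in all. More than 2-fold changes were found in 659 entries upward (11.1%) and 495 downward (8.35%). The groups did not overlap in 2111 entries (35.6%) that were higher and 2121 (35.8%) that were lower in both Day 3 libraries. The median log2 fold change over all entries was -0.01.

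**Figure D1:**
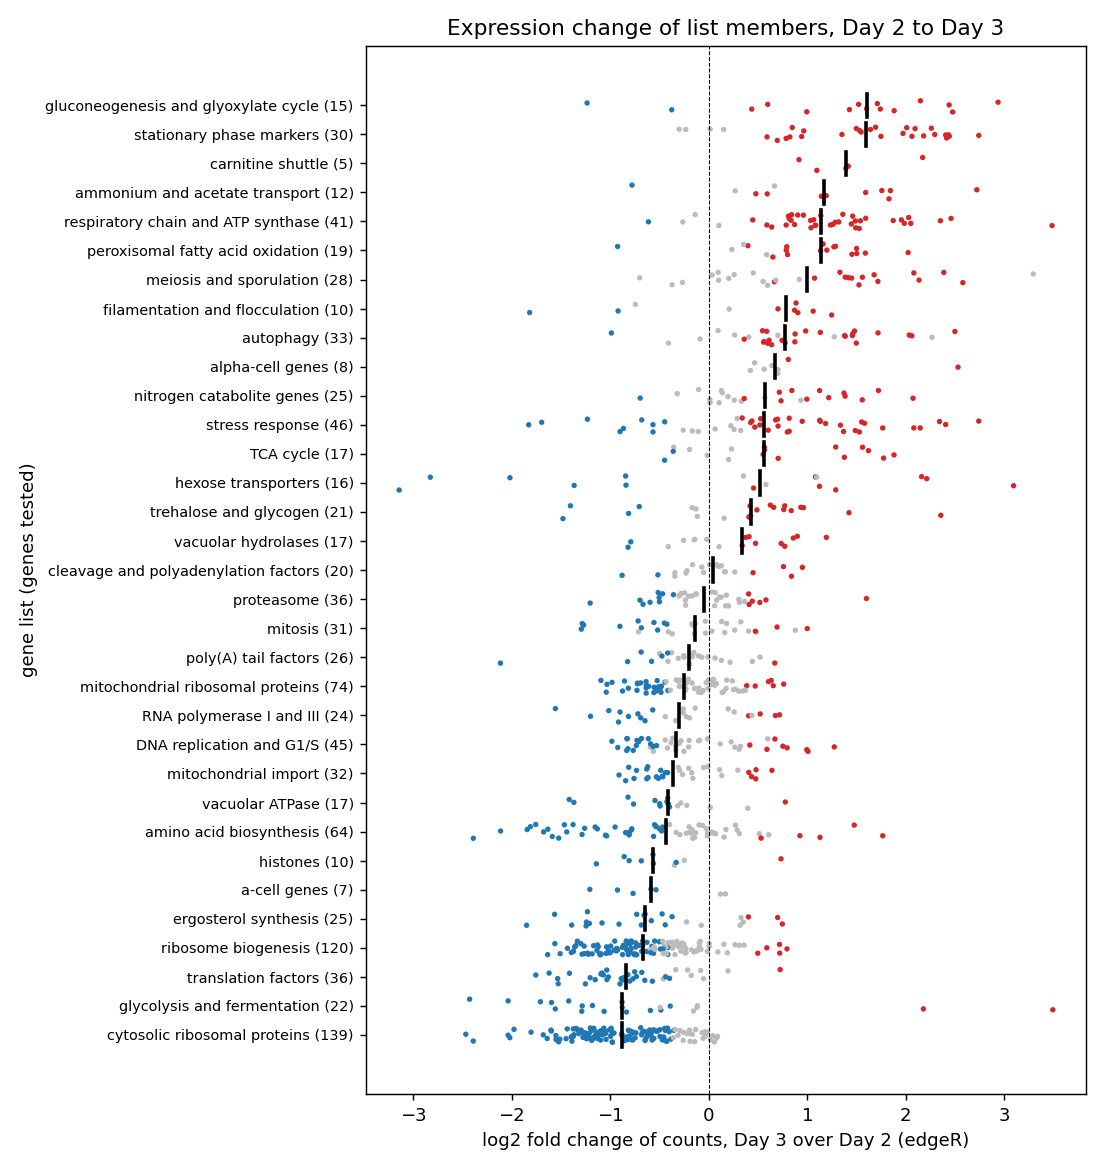
Log2 fold change of counts from Day 2 to Day 3 for the members of 33 gene lists with at least 5 genes tested, ordered by list median (black bar). Red and blue points are genes called higher and lower by edgeR, grey points are not called. The list of gluconeogenesis and the glyoxylate cycle has the highest median, 1.60, and the cytosolic ribosomal proteins the lowest, -0.88.

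Enzymes that turn 2-carbon compounds into sugar rose together. ADH2, the alcohol dehydrogenase that oxidises ethanol (chrXIII:873291-874337, R64), stood at 55.9 and 37.2 CPM on Day 2 and at 545 and 497 CPM on Day 3. Both Day 3 libraries lay far above both Day 2 libraries, with a log2 fold change of 3.49 ± 0.18 (SE, n = 2 libraries a day, edgeR adjusted p = 3.75e-12). ICL1, isocitrate lyase of the glyoxylate cycle (chrV:285241-286914), had 79.0 and 83.6 CPM on Day 2 and 669 and 576 CPM on Day 3, a log2 fold change of 2.94 ± 0.15. In the list of gluconeogenesis and the glyoxylate cycle, 13 of 15 genes were higher and 2 lower, with a median log2 fold change of 1.60. Malate synthase MLS1 rose by 2.48 ± 0.18, acetyl-CoA synthetase ACS1 by 2.44 ± 0.18 and phosphoenolpyruvate carboxykinase PCK1 by 1.71 ± 0.14 on the log2 scale. PCK1 had already gained 4.16 from Log phase to Day 2. The lower members were malic enzyme MAE1, which fell by 1.24, and the pyruvate carboxylase PYC2, which fell by 0.38.

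Uptake of alternative carbon and nitrogen sources followed the same direction. ADY2, an acetate transporter, was at 87.6 and 69.6 CPM on Day 2 and at 523 and 510 CPM on Day 3 (log2 fold change 2.72 ± 0.17). The lactate permease JEN1 rose by 1.83, the ammonium permease MEP2 by 1.84 and ATO2, of the ADY2 family, by 1.76, so that 9 of 12 genes of ammonium and acetate transport were higher and 1 lower. STL1, a glycerol symporter (chrIV:1508005-1509714), went from 32.9 and 19.6 to 194 and 201 CPM, a log2 fold change of 2.93 ± 0.19. Of 25 genes under nitrogen catabolite control, 12 were higher and 1 lower, with the proline permease PUT4 up by 1.72.

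Peroxisomal fatty acid oxidation rose in 15 of 19 genes and fell in 1 (median log2 fold change 1.13). The acyl-CoA oxidase POX1 was at 53.5 and 36.3 CPM on Day 2 and at 127 and 125 CPM on Day 3 (edgeR adjusted p = 2.74e-07), and the multifunctional enzyme FOX2 gained 1.59 ± 0.15. FAT1, which takes up and activates very long chain fatty acids, fell by 0.93. All 5 genes of the carnitine shuttle, which carries acetyl units into mitochondria, were higher, led by the carnitine acetyltransferase YAT1 at 318 and 351 CPM on Day 2 and 1404 and 1610 CPM on Day 3.

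Genes of the respiratory chain rose nearly throughout. Of 41 tested subunits of the respiratory complexes and the ATP synthase, 37 were higher and 1 lower, with a median log2 fold change of 1.14. COX26, a small protein associated with cytochrome c oxidase (chrIV:691014-691214), went from 606 and 439 CPM on Day 2 to 6241 and 5452 CPM on Day 3. That is a log2 fold change of 3.48 ± 0.17, with no overlap between the days. Cytochrome c oxidase subunits COX7 (2.46 ± 0.15) and COX13 (1.95 ± 0.15) and the bc1 complex subunit QCR8 (2.05 ± 0.15) were next. The lower gene was COX5B, the hypoxic isoform of subunit 5, at 439 and 337 CPM on Day 2 and 248 and 259 CPM on Day 3. TCA cycle genes were higher in 10 of 17 and lower in 2, with the succinate dehydrogenase subunits SDH1 (1.88), SDH3 (1.77) and SDH4 (1.56) and the 2-oxoglutarate dehydrogenase KGD1 (1.38) ahead, while IDH2 fell by 0.36 and LSC1 by 0.45.

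The sequence CCAAT, the core of sites bound by the Hap2-Hap3-Hap4-Hap5 activator of respiratory genes, was searched on both strands in the 500 bases before each start codon. It was present in 35 of 40 respiratory genes (87.5%), in 63.0% of all 5561 protein-coding genes tested and in 68.3% of those higher by more than 2-fold. Windows around a match are shown for 3 of the genes named above, from the RefSeq R64 genome in the direction of the gene, with the match in capitals (ATTGG is its reverse complement). They lie on chrXIII:779276-779298 (minus strand, COX7), chrX:106214-106236 (plus strand, QCR8) and chrVII:144587-144609 (plus strand, COX13). A match describes these letters in this window and shows no binding.
COX7: cagtacttgATTGGctacgccgc
QCR8: ttttttaagCCAATgaaaatgaa
COX13: tttttcccaCCAATgagaggcgg

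HSP30, a plasma membrane heat-shock protein, stood at 2080 and 1522 CPM on Day 2 against 13390 and 13692 CPM on Day 3 (2.91 ± 0.16). SIP18, a hydrophilin induced by water loss (chrXIII:611016-611255), went from 505 and 338 to 2820 and 2808 CPM (2.74 ± 0.17). Of 30 stationary-phase markers, 26 were higher and 0 lower (median 1.59), among them SPG1 (2.29), RGI2 (2.43), ISF1 (2.18) and the hydrophilin GRE1 (2.40). The 4 others were not called.

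The general stress list was split: 29 of 46 genes were higher and 9 lower (median 0.57). TMA10 rose by 2.34 and HSP12, a membrane-associated small heat-shock protein, by 1.49 ± 0.15. The lower members included chaperones. HSP82 (Hsp90) was at 2515 and 1767 CPM on Day 2 and 1120 and 1230 CPM on Day 3, a fall of 0.87 ± 0.16, and the Hsp70 genes SSA1 and SSA2 fell by 0.68 and 1.70. Storage carbohydrate genes were split too, with 13 of 21 higher and 4 lower. PIG2, a regulatory subunit of the Glc7 phosphatase linked to glycogen, gained 2.35 ± 0.18, while UGP1, which makes UDP-glucose, went from 528 and 447 CPM to 174 and 194 CPM (-1.40 ± 0.15). Autophagy genes were higher in 24 of 33, with ICY2 (2.50), the nuclear and endoplasmic reticulum receptor ATG39 (2.03) and the scaffold ATG11 (1.46), and ATG18, a phosphoinositide-binding protein, was the 1 lower (-0.99).

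The stress response element AGGGG, bound by Msn2 and Msn4, occurred on either strand within 500 bases of the start codon in 39 of 45 stress genes (86.7%). Its share was 34.3% over all 5561 genes, 46.2% among genes higher by more than 2-fold and 30.1% among genes lower by more than 2-fold. Windows of genes with large rises are shown, with the match in capitals (CCCCT is the reverse complement), at chrIV:690785-690807 (plus strand, COX26), chrIV:1507821-1507843 (plus strand, STL1), chrXIII:610638-610660 (plus strand, SIP18) and chrXIV:273792-273814 (minus strand, YNL194C).
COX26: aagcggaaaCCCCTctatcagta
STL1: caattttgtCCCCTtcaacgctg
SIP18: ctttcggtaCCCCTttaagacaa
YNL194C: cgctgttatCCCCTgctttcgat

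Hexose transporter genes moved in both directions and most glycolytic genes fell. HXT4, a hexose transporter (chrVIII:287081-288811), had the largest called fall among genes at 50 CPM or more: 634 and 610 CPM on Day 2 became 57.5 and 83.2 CPM on Day 3, a log2 fold change of -3.14 ± 0.23, after a rise of 4.53 from Log phase to Day 2. HXT3, a low-affinity transporter, fell by 2.83 ± 0.18 and HXT2 by 2.02 ± 0.25. HXT5, known for expression at slow growth, rose from 304 and 253 to 1317 and 1170 CPM (2.16 ± 0.15), and over the list of transporters and their regulators 7 of 16 genes were higher and 6 lower, with a median of 0.52. The highest member, HXT14, rose by 3.09 ± 0.56 at a low level, and was named after its value was seen. HXT7 (-0.84) shares nearly identical sequence with HXT6, so its level is uncertain.

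Of 22 genes of glycolysis and fermentation, 16 were lower and 2 higher (median -0.88), and the 2 were ADH2 and the minor pyruvate decarboxylase PDC6 (2.18). ENO2, the main glycolytic enolase (chrVIII:451327-452640), went from 8086 and 7906 CPM on Day 2 to 1471 and 1502 CPM on Day 3 (-2.43 ± 0.13, edgeR adjusted p = 9.15e-12). FBA1, fructose bisphosphate aldolase, fell from 24355 and 15674 CPM to 4043 and 5713 CPM. Glyceraldehyde-3-phosphate dehydrogenase TDH3 fell by 0.88 ± 0.13 and its paralog TDH2 by 1.56 ± 0.14. ENO2, TDH2 and TDH3 have near-identical paralogs, so their levels are uncertain to that extent. From Log phase to Day 2 the same list had a median of 0.25, and for 15 of the 22 genes the change in this step lay below that of the earlier step, against 2 above it, where 20% of all entries lay below and 16.0% above (edgeR test of the difference between steps).

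Ribosomal protein genes fell nearly throughout. Of 139 cytosolic ribosomal protein genes tested, 117 were lower and 0 higher, with a median log2 fold change of -0.88 and a highest value of 0.09. RPS9B, of the small subunit (chrII:604508-605508), went from 4188 and 3780 CPM on Day 2 to 660 and 781 CPM on Day 3 (-2.47 ± 0.15), and RPL8A, of the large subunit, from 1280 and 956 CPM to 193 and 233 CPM (-2.39 ± 0.17). Many of these genes are near-identical pairs whose reads can be split between copies, so single members are uncertain. Translation factors were lower in 28 of 36 and higher in 1 (median -0.84). HYP2, which encodes eIF5A, lost 1.62 ± 0.14 and the initiation factor FUN12 (eIF5B) 1.76 ± 0.15, and the higher gene was SUI1 (eIF1, 0.72).

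Ribosome biogenesis, the assembly of subunits in the nucleolus, had 73 of 120 genes lower and 5 higher (median -0.67). The helicase HAS1 went from 203 and 194 CPM on Day 2 to 54.4 and 73.2 CPM on Day 3 (-1.64 ± 0.17), GAR1 of the H/ACA particles fell by 1.51 ± 0.16, ERB1 by 1.43 ± 0.16 and the fibrillarin NOP1 by 1.30 ± 0.16. Of the 24 subunits and regulators of RNA polymerases I and III, 10 were lower and 4 higher, against 25.2% and 24.2% of all entries. MAF1, the repressor of polymerase III, was among the higher (0.68). Most of the fall in biogenesis had come earlier: the list median was -1.26 from Log phase to Day 2 and -0.08 from Day 3 to Day 4, and for 44 of the 120 genes the change in this step lay above that of the step before, against 2 below it.

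2 motifs known upstream of ribosome biogenesis genes, PAC (GATGAG) and RRPE (AAAATTT), were searched on both strands in the same windows. PAC was found in 108 of 119 genes of the list (90.8%) and in 28.0% of all genes, and RRPE in 111 of 119 (93.3%) and in 34.7%. Among genes lower by more than 2-fold RRPE was present in 48.9%, among those higher by more than 2-fold in 24.9%. PAC was present in 33.8% and 26.5% of the same sets. In the windows below PAC stands in capitals first and RRPE after it (CTCATC and AAATTTT are the reverse complements). They lie on chrVIII:283409-283432 and chrVIII:283419-283443 (GAR1, minus strand), chrXIII:370596-370619 (ERB1, minus strand) and chrIV:427151-427174 (NOP1, plus strand).
GAR1 PAC: atttttcgaGATGAGgaaaggaag
GAR1 RRPE: tgtagtgaaAAATTTTtcgagatga
ERB1 PAC: tggttttgcGATGAGcttataatt
NOP1 PAC: attggaaagCTCATCtctcttgaa

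Mitochondrial ribosomal protein genes did not follow the respiratory chain. Of 74 tested, 29 were lower and 6 higher (median -0.25), although the same list had a median of 0.52 from Log phase to Day 2. IMG1, of the large mitochondrial subunit (chrIII:209914-210423), went from 358 and 272 CPM on Day 2 to 136 and 170 CPM on Day 3 (-1.04 ± 0.16), after a rise of 1.34 in the step before. MRP51 fell from 81.5 and 74.7 to 34.0 and 39.1 CPM, MRPL1 by 1.03 ± 0.20 and MRPL31 by 0.82 ± 0.16. Genes of mitochondrial protein import were lower in 16 of 32 and higher in 5, with the translocase pore TOM40 down by 0.91 ± 0.15.

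Transcripts of mitochondrial proteins are known targets of Puf3, an RNA-binding protein that recruits deadenylases in glucose-grown cells and whose site is TGTANATA. The site was searched on the sense strand in the 200 bases after each stop codon. It was found after 72 of 73 mitochondrial ribosomal protein genes (98.6%), 4.35% of cytosolic ones and 14.9% of all genes. Outside the mitochondrial ribosome, 759 genes had the site, and their median log2 fold change was -0.11, with 137 higher and 213 lower, where 24.2% and 25.2% of all entries were called. The median of the genes without the site was -0.00106. Sites are shown in capitals for genes named here, on chrIII:209865-209890 (IMG1, minus strand), chrXVI:327699-327724 (MRP51, plus strand), chrXI:185227-185252 (MRPL31, minus strand), chrXIV:171336-171361 (MRPL17, minus strand) and chrXVI:475959-475984 (ISM1, minus strand).
IMG1: cccatctccTGTATATAagaaaaata
MRP51: tcagagttcTGTAAATAaataaagaa
MRPL31: aatttcatcTGTATATAgtttaatca
MRPL17: tcaatcacaTGTAAATAtcattaaat
ISM1: tacctttccTGTATATAaagaatgcc

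By its counts, PUF3 itself was not called in this step. It stood at 82.6 and 97.3 CPM on Day 2 and 81.5 and 107 CPM on Day 3 (0.06 ± 0.16), and the days overlapped. On Day 2 its 572 and 839 tailed reads exceeded its counts of 529 and 831. On Day 3 it had 466 and 616 tailed reads, fewer than in the Day 2 library of the same replicate number. Its counts and tailed reads were thus assigned differently, and its level is uncertain.

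**Figure D2:**
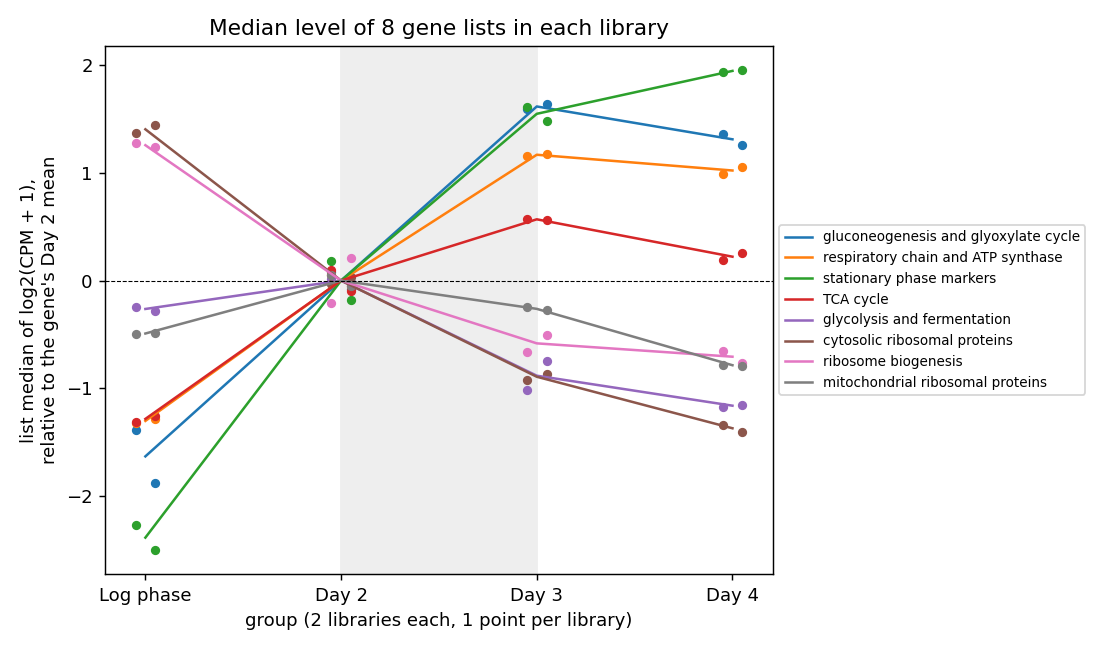
Median level of 8 gene lists in each of the 8 libraries, as log2(CPM + 1) relative to each gene's Day 2 mean, with points for libraries and lines through the group means. The shaded part is the step from Day 2 to Day 3. Ribosome biogenesis dropped mainly before Day 2, glycolysis and fermentation after it, and mitochondrial ribosomal proteins were highest on Day 2.

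Biosynthesis fell in several branches. Amino acid synthesis was lower in 32 of 64 genes and higher in 5, with cystathionine gamma-lyase CYS3 at 416 and 485 CPM on Day 2 and 76.9 and 94.9 CPM on Day 3 (-2.39 ± 0.17). The exceptions included argininosuccinate synthetase ARG1, of arginine synthesis, which rose by 1.77 ± 0.18. Ergosterol synthesis was lower in 17 of 25 and higher in 3, where ERG4 fell by 1.85 ± 0.19 and ERG24 fell by 1.57. The vacuolar ATPase was lower in 11 of 17 and higher in 1. VMA2 fell by 1.42 and VMA7 rose by 0.78, while the vacuolar protease PEP4 rose from 718 and 923 to 1919 and 1833 CPM. The proteasome list had 6 higher and 9 lower of 36, no larger a share than the 24.2% and 25.2% of all entries. The transcription activator of the proteasome genes, RPN4, was up by 1.60 ± 0.16.

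Of 45 genes of DNA replication and the G1/S transition, 15 were lower and 8 higher, and of 31 mitosis genes 10 were lower and 3 higher, where 25.2% of all entries were lower and 24.2% higher. POL30, the sliding clamp, fell by 0.83 and thymidylate synthase CDC21 by 0.98, while the GINS complex genes PSF3 (31.7 and 47.1 CPM on Day 2, 107 and 84.6 CPM on Day 3) and PSF1 rose by 1.27 and 0.79. Histone genes were lower in 7 of 10, with HTA2 down by 1.14 ± 0.14, and the variant H2A.Z gene HTZ1 was higher by 0.73 ± 0.14.

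Poly(A) tails were shorter on Day 3 in most genes. The median over the 5388 genes that had 10 or more tailed reads in each library was 20.3 and 20.5 nt in the Day 2 libraries and 18.2 and 18.3 nt in the Day 3 libraries. Both Day 3 libraries lay below both Day 2 libraries, and the exact permutation test of these medians gave p = 0.333 (two-sided, n = 2 libraries a day), the smallest p that 2 against 2 libraries allow. Weighted by tailed reads the means were 19.9 and 20.1 nt on Day 2 and 18.2 and 18.4 nt on Day 3. The median change per gene was -1.95 nt, with 10% of genes at or below -4.58 nt and 10% at or above 0.36 nt, and 4643 genes (86.2%) had a lower mean on Day 3.

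Gene by gene, limma called 1174 genes shorter (21.8%) and 13 longer (0.241%) at an adjusted p under 0.05 (Benjamini-Hochberg), 22.0% in all. Tails did not overlap between the days in 3433 genes (63.7%) that were shorter and 260 (4.83%) that were longer. Each library was also centred on its median, which by construction removes a shift common to a library. In that limma fit 0 genes were called either way, and the median change was 0.22 nt. Of the 5388 genes, 465 were shorter and 673 longer at an unadjusted p under 0.05. In the fit without centring, few simulated tail changes were called when few genes changed, and the centred fit was not simulated. The 0 calls thus do not show that all genes moved alike. The calls also rested on each library, since 69 genes were called shorter without Day 3 replicate 1, 263 without Day 3 replicate 2, 463 without Day 2 replicate 1 and 561 without Day 2 replicate 2. Tailed reads on rRNA entries, which are not messenger RNA, were 0.364% and 0.267% of all tailed reads on Day 2 and 0.764% and 0.813% on Day 3, and their part in the tail values was not tested.

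**Figure D3:**
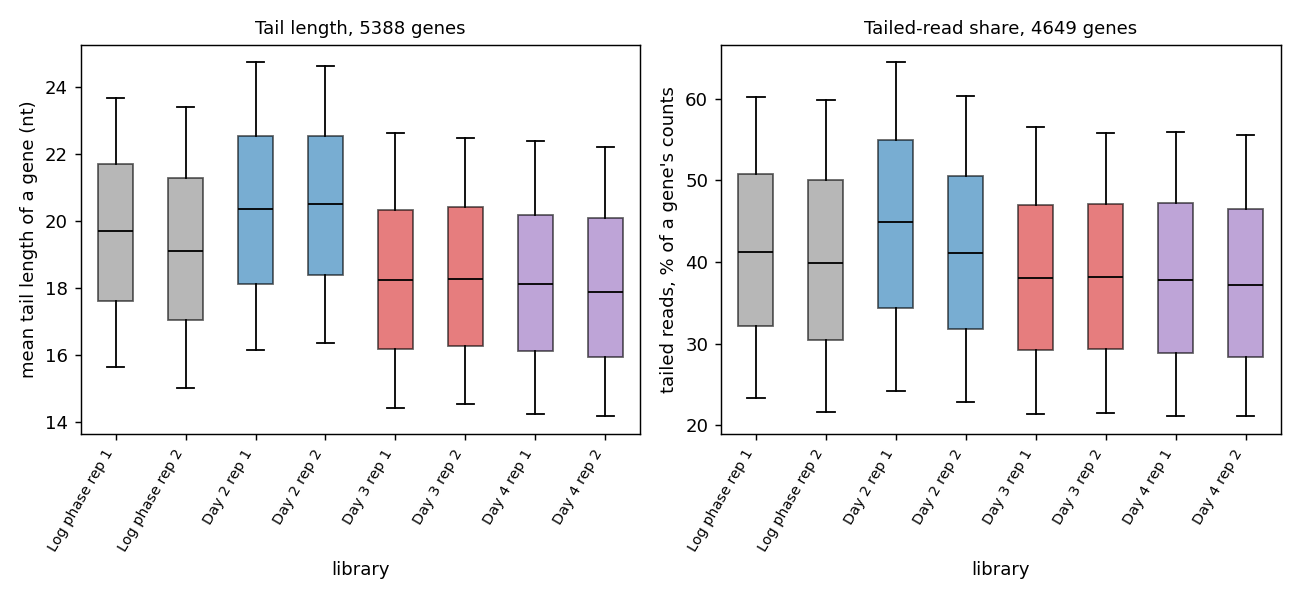
Boxes show, for each library, the middle 50% of genes with the median, and whiskers the 10th to 90th percentile, of mean tail length in nt (left, 5388 genes) and of the tailed-read share in percent (right, 4649 genes). Tail medians of 20.3 and 20.5 nt on Day 2 and 18.2 and 18.3 nt on Day 3 stand apart, and the Day 4 boxes lie at the Day 3 level.

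The shortening was found at all read depths. Genes with a mean of 10 to 50 tailed reads a library had a median change of -2.39 nt and those with over 1000 a median of -1.31 nt, and 76.2% and 80.2% of them had a lower mean on Day 3. Its median was also similar over Log phase tail lengths, which this comparison does not use. In 4 equal bins of the genes ordered by their Log phase tail, the medians ran from -2.09 to -1.81 nt. The share called shorter was 23.8% in the bin with the shortest Log phase tails and 18.1% in that with the longest. By annotated length, the bin up to 767 bases had a median change of -1.66 nt and the bin from 1935 bases -2.40 nt. By Log phase CPM, the most abundant bin had -1.48 nt and the least abundant -2.25 nt.

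Tails shortened less in genes whose expression fell than in the other genes. Genes called higher in expression had a median tail change of -2.23 nt (1246 genes, 359 called shorter, 28.8%), genes called lower -1.30 nt (1460 genes, 201 shorter, 13.8%), and genes not called -2.27 nt (2512 genes, 23.5%). Among genes lower by more than 2-fold the median was -0.96 nt and 9.92% were called shorter. Across 5218 genes Spearman's rho between both changes was -0.21, a description over genes that share libraries and are not independent replicates.

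All 34 lists with at least 5 measured members had a median tail change below 0, from -2.92 to -0.32 nt. The smallest shifts belonged to abundant lists that fell in expression. Cytosolic ribosomal proteins had a median of -0.32 nt, with 10 of 137 genes shorter and 2 longer, against 21.8% and 0.241% of all genes. Glycolysis and fermentation had -0.46 nt, with 1 of 22 shorter and 1 longer, and translation factors -0.49 nt, with 3 of 36 shorter. The largest shifts were those of mitosis (-2.92 nt, 7 of 26 shorter), autophagy (-2.85 nt, 12 of 29) and RNA polymerases I and III (-2.73 nt, 9 of 24). Respiratory chain genes lay near all genes, at -1.80 nt with 13 of 39 shorter, as did mitochondrial ribosomal proteins, at -1.67 nt with 13 of 74 shorter and 1 longer. Genes with a Puf3 site after the stop codon had a median of -1.75 nt and those without -2.02 nt.

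**Figure D4:**
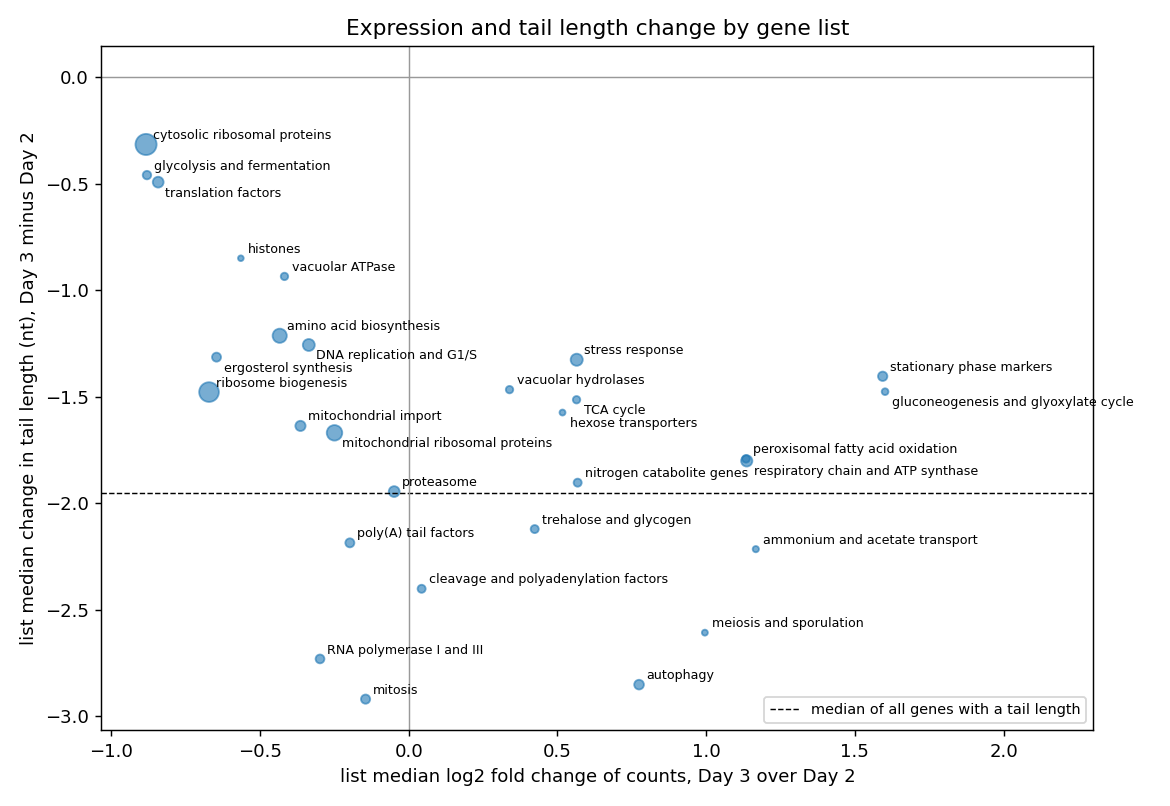
List medians of the tail length change (nt, Day 3 minus Day 2) against list medians of the log2 fold change of counts, for lists with at least 10 genes in both, with point area by number of genes. The dashed line is the median of all genes, -1.95 nt. Cytosolic ribosomal proteins, glycolysis and translation factors sit at the upper left, nearest to 0 nt.

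NOC2, a protein needed for export of large ribosomal subunits (chrXV:727512-729644), had the largest called shortening among genes with at least 50 tailed reads in each of the 4 libraries: 22.7 and 23.2 nt on Day 2, 11.1 and 13.7 nt on Day 3. The change was -10.6 ± 1.23 nt (limma adjusted p = 0.00709) on 73 to 128 tailed reads a library. Its counts fell by 0.74 while its tailed reads alone gave 0.47 on the log2 scale, so its expression change depends on which reads are counted. Its tailed share rose from 33.8% and 32.6% on Day 2 to 80.9% and 61.0% on Day 3 (log2 odds 2.22 ± 0.52). The tail mean thus covers a different part of its reads on each day, and the effect on its tail change was not tested. The mitochondrial iron carrier MRS3 went from 29.6 and 26.7 nt to 19.6 and 17.9 nt (-9.43 ± 1.16 nt). The peroxisomal protein PXP2 went from 29.8 and 32.1 nt to 19.6 and 22.9 nt (-9.29 ± 1.63 nt). In both, the days were well apart.

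The other genes in this group had varied roles and changes of -9.25 to -8.46 nt. They were the mitochondrial isoleucyl-tRNA synthetase ISM1 (27.5 and 26.5 nt on Day 2, 16.0 and 19.7 nt on Day 3), the ubiquitin ligase HUL5 (-8.70 nt), the splicing factor NTC20 (-8.53 nt), the endosomal sorting subunit VPS28 (-8.46 nt) and the SNARE protein TLG2 (-9.25 nt), whose Day 2 values, 25.6 and 17.3 nt, were far apart. With libraries centred on their medians these 8 genes had changes of -8.42 to -6.29 nt and 0 of the 8 were called (limma adjusted p from 0.0569 to 0.144). Among strongly induced genes, SIP18 had short tails that shortened further, 14.4 and 16.0 nt to 11.5 and 10.5 nt (-4.18 ± 0.80 nt), while HSP30 (-0.59 ± 0.80 nt) and ADH2 (-0.71 ± 0.80 nt) were not called.

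Longer tails were found mostly in genes whose counts fell. ENO2 had 9.42 and 9.74 nt on Day 2 and 11.5 and 10.9 nt on Day 3 (1.64 ± 0.49 nt, limma adjusted p = 0.0459), on 5937 to 26529 tailed reads a library, as its level dropped by 2.43. The rRNA methyltransferase NOP2 went from 21.8 and 24.0 nt to 26.5 and 27.6 nt (4.17 ± 1.11 nt) and the ribosome assembly factor YTM1 from 21.3 and 21.1 nt to 25.7 and 23.8 nt (3.54 ± 1.01 nt). RPL35B (3.66 ± 0.93 nt), MRPL17 (3.61 ± 0.98 nt) and YML096W (4.40 ± 1.20 nt) were longer too, with lower counts. An exception was the eisosome protein EIS1, whose tails went from 21.4 and 21.8 nt to 25.1 and 25.5 nt (3.68 ± 0.80 nt) while its level rose by 1.71. Of the 12 longer genes with an expression test, 9 were lower and 2 higher in expression, against 25.2% and 24.2% of all entries. With libraries centred on their medians, 0 genes were called longer. In that fit the longer genes named here other than ENO2 had changes of 5.71 to 6.57 nt (limma adjusted p from 0.0569 to 0.0617). Without Day 2 replicate 1 or Day 3 replicate 2, 0 genes were called longer, and without Day 3 replicate 1 only 1.

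**Figure D5:**
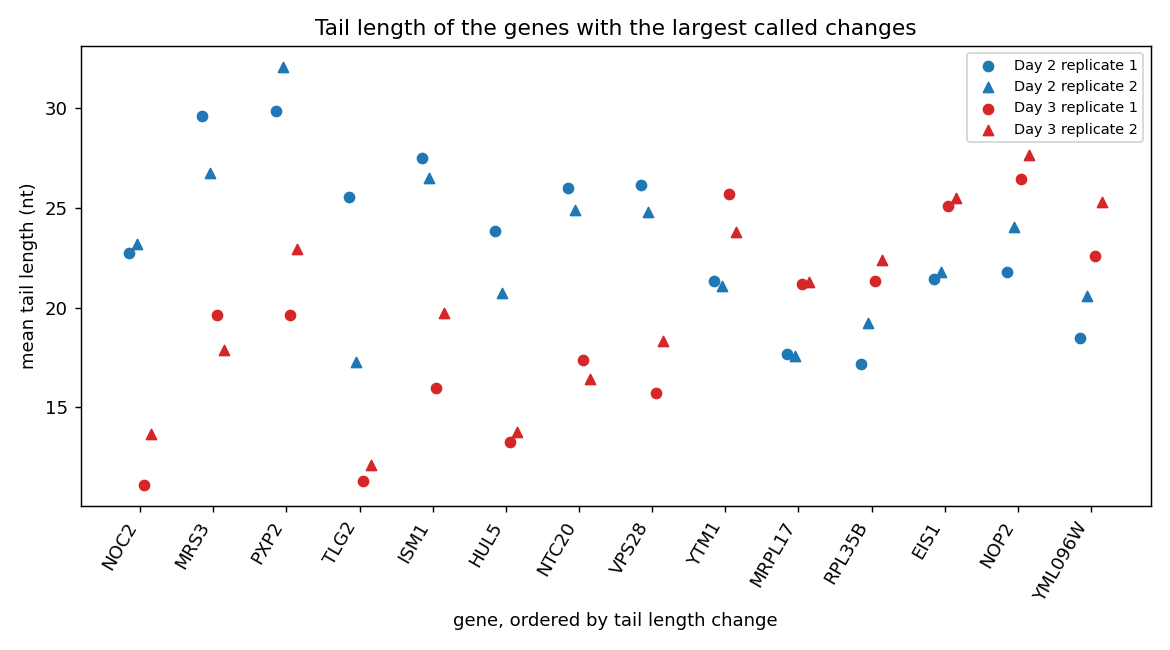
Mean tail length in nt of the 8 genes with the largest called shortening and the 6 with the largest called lengthening, with Day 2 in blue and Day 3 in red, circles for replicate 1 and triangles for replicate 2. Red lies below blue for NOC2 to VPS28 and above it for YTM1 to YML096W, and the Day 2 values of TLG2 are 25.6 and 17.3 nt.

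Of 26 poly(A) tail and decay factors tested for expression, 6 were lower and 1 higher, against 25.2% and 24.2% of all entries. Without regard to the test, the libraries of the days did not overlap for 14 lower and 2 higher genes, against 35.8% and 35.6% of all entries. PAB1, the main poly(A)-binding protein, stood at 761 and 880 CPM on Day 2 and 703 and 727 CPM on Day 3 (-0.20 ± 0.14, edgeR adjusted p = 0.257), with no overlap between the days. The deadenylase POP2 went from 85.1 and 91.7 CPM to 63.5 and 54.7 CPM (-0.58 ± 0.16), whereas its partner CCR4 (-0.17 ± 0.21) and the PAN2 subunit of the other deadenylase (-0.50 ± 0.22) were not called. The 5′ exonuclease XRN1 fell by 0.82 ± 0.14, the decapping subunits DCP2 by 0.48 and DCP1 by 2.12 (from 5.31 and 7.61 CPM), the enhancer EDC3 by 0.69 and the Ccr4-Not subunit NOT5 by 0.42, while the helicase DHH1 rose by 0.67. The tails on the transcripts of these factors were called shorter in 8 of 25, against 21.8% of all genes. Their median change was -2.19 nt, near the -1.95 nt of all genes. The tails described next had the largest changes of the list. Tails of POP2 went from 23.2 and 20.4 to 14.5 and 16.3 nt (-6.42 ± 1.29 nt). Those of the Ccr4-Not scaffold CDC39 went from 22.5 and 20.4 to 12.9 and 16.6 nt. Those of the poly(A) polymerase PAP1 went from 22.0 and 26.0 to 13.6 and 14.2 nt, on 17 to 30 tailed reads a library. Cleavage and polyadenylation factors were higher in 4 of 20 and lower in 2, with RNA14 up by 0.95 ± 0.16.

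Tailed reads took a smaller share of the counts in 3413 of 4649 genes on Day 3. The median share over 4649 genes with at least 50 reads in each library was 44.9% and 41.1% on Day 2 and 38.0% and 38.1% on Day 3. edgeR on tailed and untailed reads called 649 genes lower (14.0%) and 109 higher (2.34%), 16.3% in all, with a median change of -0.27 in log2 odds. Shares did not overlap in 2196 genes (47.2%) that were lower and 552 (11.9%) that were higher. Single libraries weighed on these counts. Genes called lower ranged from 115 without Day 3 replicate 1 through 289 without Day 2 replicate 1 and 310 without Day 3 replicate 2 to 1179 without Day 2 replicate 2, and genes called higher were 18 without Day 3 replicate 1 and 65 without Day 3 replicate 2. Summed over 4866 genes that both tables assign alike, 40.9% and 39.3% of reads were tailed on Day 2 and 38.8% and 38.8% on Day 3.

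The 4 genes with the largest called falls in share, COR1, FMP52, KTI11 and OST4, and the gene with the largest rise, IRC11, had fewer reads in the count table than in the authors' gene table, so their shares mix 2 assignments. With genes restricted to those whose counts lay within 10% of the gene table, 664 were lower and 104 higher. Genes from this restricted set were picked after their values were seen. PHO89, a phosphate transporter, had 61.8% and 80.3% tailed reads on Day 2 and 43.3% and 41.3% on Day 3, and the mitochondrial ribosomal protein gene MRPS12 86.1% and 81.8% against 58.3% and 62.3%. CYC1, iso-1-cytochrome c, rose from 2.31% and 4.12% to 9.45% and 8.21% on 2378 to 4422 reads a library (log2 odds 1.60 ± 0.22 in the restricted set), and its counts were not called changed (0.10 ± 0.27). EIS1, with longer tails, went from 39.3% and 36.8% to 61.2% and 57.4%.

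By list, against 14.0% lower and 2.34% higher among all genes, respiratory genes had 12 of 31 lower and 1 higher, mitochondrial import 12 of 31 lower, and cytosolic ribosomal proteins 20 of 136 lower and 18 higher, with a median of -0.03 in log2 odds. Across 4605 genes Spearman's rho between the share and tail changes was 0.24, and between the share and expression changes -0.11, both as descriptions.

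The steps before and after share the Day 2 or the Day 3 libraries with this one, so that a deviation of those libraries enters both steps with opposite signs. For tails, the Log phase to Day 2 step had 59 genes longer (1.10%) and 5 shorter (by limma with no weights 0 and 0, with 1054 and 163 at an unadjusted p under 0.05, and with uncapped weights 490 and 35), a median of 0.96 nt, with 0.0928% of genes shorter. For 717 genes (13.3%) the change in the Day 2 to Day 3 step lay below that of the earlier step and for 5 (0.0928%) above it (limma test of the difference, Benjamini-Hochberg adjustment). From Day 3 to Day 4, 0 genes were called either way, 171 were longer and 268 shorter at an unadjusted p under 0.05, and with uncapped weights 13 were longer and 4 shorter. The difference between this step and the Day 3 to Day 4 step had 0 calls, with 858 genes less shortened in the later step and 50 more so at an unadjusted p under 0.05, and 197 and 2 called with uncapped weights.

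In expression, 28.3% of entries were higher and 28.2% lower from Log phase to Day 2, and 11.8% and 14.6% from Day 3 to Day 4. The change in this step lay above that from Log phase to Day 2 for 951 entries (16.0%) and below it for 1186 (20%). The change from Day 3 to Day 4 lay above that of this step for 473 entries (7.98%) and below it for 648 (10.9%). Against the earlier step, 38 of the 74 mitochondrial ribosomal protein genes lay below and 2 above. Of the 46 stress genes, whose median had been 1.77 in the earlier step, 29 lay below and 4 above. Of the 139 cytosolic ribosomal protein genes, 57 lay above and 9 below. In the tailed-read share, 430 genes (9.25%) were higher and 231 (4.97%) lower from Log phase to Day 2, and 1 (0.0215%) and 4 (0.0860%) from Day 3 to Day 4. For 675 genes (14.5%) the share's change in this step lay below that of the step before and for 175 (3.76%) above it. Between this step and the next, the difference in share had 0 calls either way by edgeR, with 478 genes above and 122 below at an unadjusted p under 0.05.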

How the data were processed

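PAT-seq libraries of 8 samples, 2 each from Log phase, Day 2, Day 3 and Day 4, were read with 75-base SOLiD reads, per the labels' protocols. The authors deposited raw counts of reads per gene, raw counts of tailed reads per gene, and the mean tail length in nt per gene and library. The authors' gene table adds, pooled over libraries, reads per gene and the tailed fraction of those reads. No source used here states an aligner, a rule for counting or calling tails, or a build. Reads are 75 bases long, which limits the tail that can be sequenced, so tail lengths are lengths as read. Of 6532 entries with counts, 149 merge several genes, and 5801 of 5813 shared entries (99.8%) have coordinates identical to RefSeq R64, whose sequence was used for motifs. Entries whose assignment is doubtful (619) were kept and tested separately as an alternative.

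Counts were tested with edgeR 4.0.16 (TMM, quasi-likelihood F test, 8 libraries sharing 1 estimate of spread) in R 4.3.3, after its default filter on low counts. Mean tails were tested with limma 3.58.1 for genes with at least 10 tailed reads per library, with weights equal to tailed reads capped at 100. No gene type was left out of the tail test, so it also holds 64 snoRNA entries. The tailed share was tested with edgeR on tailed and untailed counts for genes with at least 50 reads per library, and 208 of 4857 genes with more tailed reads than counts were left out. Adjusted p-values are Benjamini-Hochberg over all features, with a threshold of 0.05. The methods were tested on simulated data. Few simulated tail changes were called when few genes changed, so a tail that was not called is not shown to be unchanged. Replicate libraries differed by more than counting error (chi-square per degree of freedom 33.7 on Day 2 and 17.2 on Day 3, at 6203115 to 8435846 total counts). Errors after ± are SEs of these fits unless marked SD, and floors cover counting error only.

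Named genes were, for expression, the 10 largest called changes each way at 50 CPM or more, up to 4 called members per list by p and those against the list's majority, the 8 genes with the largest called shortening and the 6 with the largest called lengthening on at least 50 tailed reads, the 4 largest share changes each way, the poly(A) tail factors and strain markers; not all are described, and some further members were chosen after their values were seen. The members and gene lists were chosen with earlier results of these data known. Same-numbered replicates did not deviate together (r = 0.01 for log2 CPM and -0.04 for tails), so libraries were not paired. DESeq2 1.42.0, other filters, weights, scalings, left-out libraries and a replicate block were tried as alternatives.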

Additional observations from a re-analysis of the deposited data

Results flagged for a closer look

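The tail length change of this step lay below that of the Log phase to Day 2 step for 717 genes by a test of the difference between steps. In expression, the change lay above that of the earlier step for 951 entries and below it for 1186. Of the mitochondrial ribosomal protein genes, 38 lay below the earlier step. These steps share the Day 2 libraries.

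Tailed reads were also found on entries that are not messenger RNA. The tail comparison was not restricted by gene type, and 64 snoRNA entries were part of it. Of these, 12 were called shorter and 1 longer, against 21.8% and 0.241% of all genes, with a median change of -1.09 nt. rRNA entries took 0.789% ± 0.035 (SD, n = 2 libraries) of tailed reads on Day 3 and 0.316% ± 0.069 on Day 2, and snoRNA entries 0.397% ± 0.016 on Day 3 and 0.153% ± 0.026 on Day 2. For each, both Day 3 libraries lay above both Day 2 libraries, and the exact permutation test gave p = 0.333, the smallest that 2 against 2 libraries allow.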

How the results depend on the processing

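Expression counts stayed within 1.5 times of 1438 higher and 1492 lower under each alternative run, from 1143 to 1497 higher and from 1097 to 1504 lower. Tail calls moved most. Genes called shorter (1174) were 782 with no weights, 424 with Day 2 and Day 3 libraries only and 0 with libraries centred on their medians, and 69 to 561 with 1 library left out. Genes called longer (13) were 37 with uncapped weights, 20 with at least 100 tailed reads (an alternative chosen after seeing the data), 0 with Day 2 and Day 3 only, 0 when centred, and 0 to 10 with 1 library left out. The median tail change was -1.78 nt with at least 100 tailed reads, 0.22 nt when centred, which by construction removes a shift common to a library, and -1.97 to -1.85 nt with 1 library left out, and the difference of library means weighted by tailed reads was -1.70 nt against -2.17 nt for medians. Genes with a lower share (649) were 413 with Day 2 and Day 3 only and 115 to 1179 with 1 library left out, and those with a higher share (109) were 165 with the library share taken out, 67 with Day 2 and Day 3 only and 18 to 147 with 1 library left out. Counted from tailed reads alone, the expression change turned positive for NOC2 (0.47), IRC11 (0.86) and HHO1 (0.036), and the cause was not tested. With the replicate number as a block, 1398 entries were higher and 1436 lower, 958 tails shorter and 9 longer, and 602 shares lower and 103 higher. By depth, 8.01% of genes with 10 to 50 tailed reads were called shorter, 18.6% with 50 to 100, 24.5% with 500 to 1000 and 19.1% with over 1000, and the part of depth in this was not tested.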

Other observations

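Some cell-type genes of mating also moved. MF(ALPHA)1, the main alpha-factor gene, stood at 17.9 and 11.5 CPM on Day 2 and at 87.8 and 80.0 CPM on Day 3 in these MATa cells (log2 fold change 2.53 ± 0.20, edgeR adjusted p = 1.54e-09). Among 8 alpha-cell entries 2 were higher and 0 lower, where 24.2% of all entries were higher and 25.2% lower. SAG1 rose by 0.81 ± 0.20. STE3 (0.70 ± 0.48) and MF(ALPHA)2 (0.64 ± 0.82, at 5 to 12 counts a library) were not called. Of 7 genes specific to a cells, 5 were lower and 0 higher. BAR1, the protease that degrades alpha-factor, went from 127 and 146 CPM to 56.2 and 61.8 CPM, and STE2, the alpha-factor receptor, fell by 0.77 ± 0.15. The a-factor genes MFA1 (0.12 ± 0.14) and MFA2 (0.17 ± 0.16) were not called.

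Meiosis and sporulation genes were higher in 14 of 28 and lower in 0, at low levels. Of all entries, 24.2% were higher and 25.2% lower. NDT80, the transcription factor of middle meiosis, went from 7.96 and 8.43 CPM to 22.3 and 19.1 CPM (1.33 ± 0.26), while IME1, the initiator of meiosis, was at 21.5 and 23.1 CPM on Day 2 and 21.6 and 24.1 CPM on Day 3. In a list of 10 filamentation and flocculation genes, 6 were higher and 2 lower, against the same shares of all entries. Reads of the FLO genes, which share repeats, cannot be assigned with certainty.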
